A study of Homo sapiens with 17 samples.

Results

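When IMR90 fibroblasts stop dividing after long passage, H3K4me3 rises over many broad stretches of the genome, and an activated Ras oncogene gives a set that overlaps with it. The regions described here are the replicative stretches that Ras largely repeats: H3K4me3 mesas of replicative senescence on chromosomes 1 to 22 with at least 50% of their base pairs under Ras-induced H3K4me3 mesas. There were 359 of them among 587 autosomal replicative mesas, and among 648 replicative mesas in all. They are called shared mesas below, and the other 228 autosomal mesas are called mostly replicative. A mesa is read here as a broad domain that gains a mark in senescence and a canyon as one that loses it. A direction is written only in the header of the replicative H3K4me3 list, and for the other lists it is read from the name. The shared mesas were chosen by this measured overlap, so its values are a description with no test.

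IMR90 is a line of primary human lung fibroblasts, grown here at 3% oxygen. For replicative senescence, proliferating cells at population doubling 24 were set against cells at doubling 87 that had been passaged until growth ceased and kept for 2 more weeks, in medium with 10% serum. For oncogene-induced senescence, cells infected with a retrovirus carrying an ER:Ras fusion were induced with 100 nM 4-hydroxytamoxifen at doubling 15, in medium with 20% serum and G418 at 500 ug per ml, and were set against control cells at doubling 15. The labels do not say whether the control cells carried the construct or were given the drug. Each of the 4 H3K4me3 groups had 1 library (proliferating, senescent, control, Ras-induced), as did the lamin B1 map, which came from proliferating cells at doubling 24. H3K27me3 was mapped in 4 proliferating and 2 senescent libraries, so its lists concern replicative senescence only, and histone H3 in 6 libraries in all. The description label of the only senescent H3K4me3 library, and of 1 senescent H3K27me3 library, holds just the bracketed word "delete", and which libraries entered each list is not given in the sources used here. The deposited lists give coordinates on the hg18 build and no signal, so depth is unknown and no value can be set against a spread between cultures. Regions are not replicates of a condition. The comparisons below are therefore counts, medians and shares, with no p-value, and no difference in them was tested.

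H3K4me3, trimethylation of lysine 4 of histone H3, is normally concentrated in narrow peaks at the promoters of active and poised genes. H3K27me3, trimethylation of lysine 27, is laid down by Polycomb repressive complexes and marks silenced developmental genes and broad repressed stretches. Lamina-associated domains (LADs) are large, mostly gene-poor and silent stretches of chromatin that touch the nuclear lamina, the filament mesh under the nuclear envelope to which lamin B1 belongs. Lamin B1 is lost in senescence, both after serial passage and after oncogene activation.

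Overlap between both forms of senescence was mostly either high or absent. Of the 587 autosomal replicative mesas, 186 (31.7%) met no Ras-induced mesa, 150 (25.6%) lay wholly under one, and 42 met one over less than 50% of their length. The rule was passed by 61.2% of mesas. Among the 359 shared mesas the median overlap was 97.2% (quartiles 81.4 and 100%), and 231 of them had at least 90% of their base pairs under Ras-induced mesas. Regions of chromosome 8 are counted throughout but not named. Near the threshold, the nearest regions inside had overlaps of 50.3% (chromosome 2, 60038001 to 60609999), 50.8% (chromosome 6, 87099001 to 87801999) and 52.6% (chromosome 12, 13315001 to 13924999). The nearest outside, chromosome 8 left aside, had 49.1% (chromosome 2, 29296001 to 30209999), 48.7% (chromosome 11, 108508001 to 109341999) and 46.7% (chromosome 17, 20222001 to 20969999). On chromosome 8, 3 mesas lay just outside, at 49.9999%, 48.7% and 48.2%, and none lay just inside. The first of these would pass if region ends were counted inclusively, which gives 360 shared mesas.

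Shared mesas had a higher median length than the pooled mostly replicative ones. Their median length was 732 kb (quartiles 590 and 956 kb, range 502 to 3042 kb), against 639 kb (547 and 785 kb, range 502 to 1751 kb) for the others and 689 kb for all autosomal mesas. Of the shared mesas, 74 (20.6%) reached 1000 kb, against 15.8% of all autosomal mesas. The lower median of the mostly replicative mesas came from the 186 with no Ras-induced overlap, at 619 kb. The other 42, with overlap under 50%, had a median of 800 kb, above that of shared mesas, and 28.6% reached 1000 kb. Among shared mesas, the median was 803 kb at 50 to under 75% overlap, 732 kb at 75 to under 100% and 694 kb at whole cover. Read by length, the rule was passed by 98 of 187 mesas of 500 to 600 kb (52.4%), 113 of 201 of 600 to 800 kb (56.2%), 74 of 106 of 800 to 1000 kb (69.8%) and 74 of 93 of 1000 kb and over (79.6%). In the same classes, from shortest to longest, 47 of 187, 44 of 201, 27 of 106 and 32 of 93 mesas lay wholly under Ras-induced mesas. As shares of the shared mesas alone, these were 48.0, 38.9, 36.5 and 43.2%. No list holds an H3K4me3 mesa under 501 kb, so shorter stretches of gain are not represented.

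**Figure D1:**
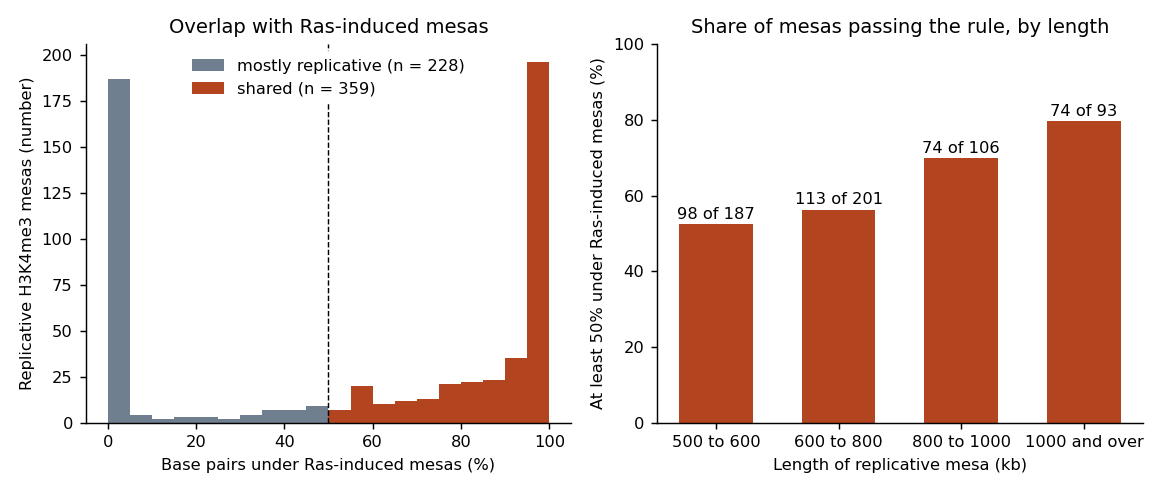
Left, number of autosomal replicative H3K4me3 mesas by percent of their base pairs under Ras-induced mesas (bins of 5 points; dashed line, the 50% rule). Right, percent of mesas passing the rule in 4 length classes in kb, with counts above the bars; the bars rise from 52.4% to 79.6%.

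The 6 longest shared mesas differed widely in chromatin context. The longest, on chromosome 6 at 38783001 to 41824999 (3.04 Mb), had 86.4% of its base pairs under Ras-induced mesas, 85.4% in LADs and 63.1% under H3K27me3 mesas. On chromosome 20 at 56534001 to 59257999 (2.72 Mb), 76.2% was repeated after Ras, 91.8% lay in LADs and 31.7% under H3K27me3 mesas. A second long mesa of that chromosome, at 21334001 to 23571999 (2.24 Mb), was 81.4% under Ras-induced mesas, wholly in a LAD and 65.8% under H3K27me3 mesas. By contrast, neither H3K27me3 mesas nor canyons touched the mesas of chromosome 7 (61657001 to 64091999, 2.43 Mb) and chromosome 19 (21103001 to 23194999, 2.09 Mb), which were all LAD and had Ras-induced overlaps of 55.0% and 93.8%. The mesa on chromosome 11 at 43753001 to 45938999 (2.19 Mb, 77.6% under Ras-induced mesas) had 68.2% of its base pairs in LADs, 3.36% under H3K27me3 mesas and 23.2% under canyons. These 6 mesas thus ranged from mostly H3K27me3 mesa, through partial canyon cover, to no H3K27me3 region of either kind. The H3K27me3 lists concern replicative senescence only, so the state of this mark after Ras is not known here.

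Shared mesas lay mainly in LADs, to nearly the same degree as the mostly replicative ones. Of their base pairs, 88.5% were in LADs, against 90.6% for the other mesas and 61.2% of the autosome span. At least 50% of the length was in LADs for 334 shared mesas (93.0%), against 93.7% of all autosomal mesas. All base pairs were in LADs for 190 shared mesas (52.9%), against a background of 55.4%, and none were for 6 (1.67%, background 1.70%). Over the 21 autosomes that hold both kinds, the LAD share was 87.9 ± 6.97% (SD) for shared and 91.5 ± 7.08% for other mesas, with shared mesas higher on 9 and lower on 12. By length class, from shortest to longest, the LAD share was 85.0, 87.0, 91.7 and 89.4% in shared mesas and 91.9, 90.6, 89.5 and 89.0% in the others, so it was lower in shared mesas in the shorter classes and higher in the longer ones. The difference over all lengths, -2.08 points, was 0.472 points in the other direction among mesas of at least 1000 kb.

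As in the background, most shared mesas met a single LAD: 314 (87.5%) met exactly 1, against 87.4% of all autosomal mesas, while 37 met 2 and 2 met 3. The LAD that held most of the mesa was longer than the mesa itself in 262 cases (73.0%), against 77.7% of all autosomal mesas. This LAD had a median length of 1410 kb, against 1500 kb for the other mesas. Among shared mesas with less than 50% of their length in LADs, the longest had LAD shares of 32.4% (chromosome 22, 25349001 to 26518999, 1.17 Mb), 12.4% (chromosome 10, 79469001 to 80514999, 1.05 Mb) and 23.4% (chromosome 16, 64185001 to 65124999, 0.940 Mb). Their overlaps with Ras-induced mesas, the value that the rule used, were 97.9%, 100% and 100%. The chromosome 22 region was 82.2% canyon, and the others had 12.3% and 15.6% of their base pairs under canyons. The lamina map is that of proliferating cells, and the lamina of the Ras-carrying cells was not analysed here.

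The shared mesas differed from the mostly replicative ones in H3K27me3. H3K27me3 mesas covered 46.8% of shared mesa base pairs, against 28.8% in the other mesas, 40.4% over all autosomal mesas and 17.2% of the autosome span. The median shared mesa was 41.8% covered (quartiles 1.23 and 88.4%), and the median of the others was 1.90% (quartiles 0 and 59.2%). At least 50% cover was found in 169 shared mesas (47.1%), against 39.7% of all autosomal mesas, and no cover in 81 (22.6%), against 30.5%. Complete cover was as frequent as in the background, with 40 shared mesas (11.1%) against 10.9%. On 18 of 21 autosomes the cover was higher in shared mesas, with means of 45.7 ± 14.8% and 28.0 ± 16.2% (SD over autosomes) and a mean difference of 17.7 ± 20.1 points. Chromosomes 11, 12 and 22 went the other way; chromosomes 19 and 22 have 1 mostly replicative mesa each.

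The difference was of similar size within LADs and within length classes. Counting only base pairs inside LADs, H3K27me3 mesas covered 51.5% of shared and 31.3% of mostly replicative mesas. In the 4 length classes, from shortest to longest, cover was 43.6, 42.9, 49.2 and 50.0% in shared mesas, against 27.7, 26.4, 34.3 and 30.9% in the others. Cover by H3K27me3 mesas was 25.4% in mesas with no Ras-induced overlap and 55.4% in those lying wholly under Ras-induced mesas. It did not increase at each step between them: it was 47.9% in the 13 mesas with overlap above 0 and under 25%, 37.7% in the 29 with 25 to under 50%, 36.7% in the 62 with 50 to under 75%, and 42.8% in the 147 with 75 to under 100%.

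Canyons, in contrast, took up similar shares of both kinds of mesa. They covered 15.2% of shared mesa base pairs and 16.4% of the other mesas, against 35.6% of the autosome span. At least 50% canyon cover was found in 53 shared mesas (14.8%), equal to the 14.8% of all autosomal mesas, and no canyon at all in 220 (61.3%), against 62.5%. Whole cover by canyons was found in 19 shared mesas (5.29%) and 23 others (10.1%), against 7.16% of all autosomal mesas. Averaged over 21 autosomes, canyon cover was 14.9 ± 9.33% in shared and 14.8 ± 14.3% in other mesas, with shared mesas higher on 12 and lower on 9.

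**Figure D2:**
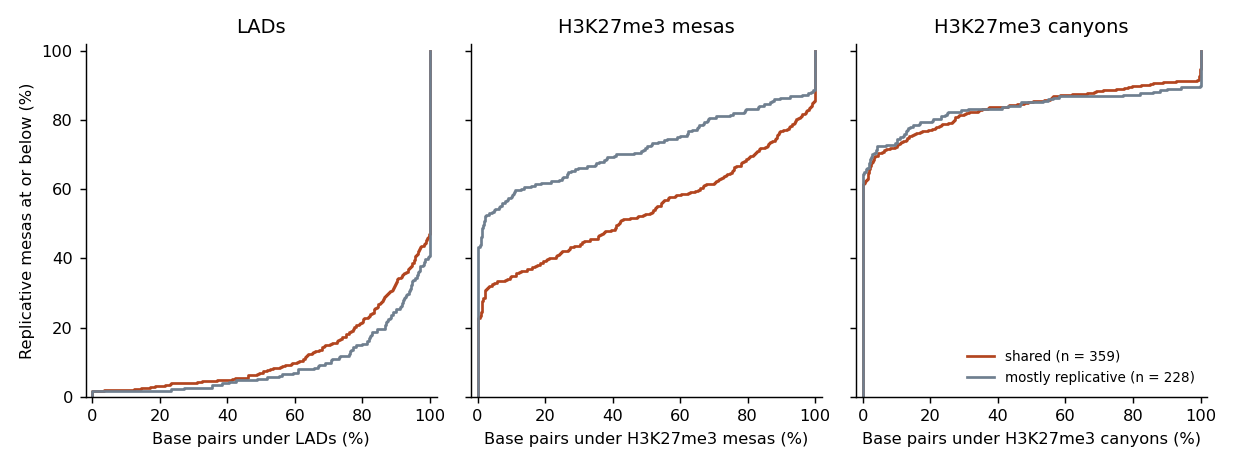
Percent of autosomal replicative mesas (y axis) with at most the given percent of base pairs (x axis) in LADs, under H3K27me3 mesas and under H3K27me3 canyons, for 359 shared mesas and 228 mostly replicative mesas. The curves lie close together for LADs and canyons and apart for H3K27me3 mesas, where the medians are 41.8% and 1.90%.

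Split by their H3K27me3 state, shared mesas formed groups with different lamina context. The 169 that were mostly H3K27me3 mesa had 96.7% of their base pairs in LADs, sat in LADs with a median length of 1940 kb, and in 168 cases were at least 50% LAD. The 53 that were mostly canyon had 68.0% in LADs, with a median host LAD of 565 kb, and 13 of them were less than 50% LAD. The remaining 137 had 85.2% in LADs and a median host LAD of 920 kb, and 28 of these touched no H3K27me3 region of either kind, which is 7.80% of shared mesas against 13.6% of all autosomal mesas. The median overlap with Ras-induced mesas was 99.0%, 100% and 93.0% in these states, where the rule itself sets a floor of 50%. Among the mostly replicative mesas the same split gave 64, 34 and 130 regions, with 96.8%, 73.3% and 91.7% of base pairs in LADs and median host LADs of 1670, 910 and 1600 kb. All 64 of the first state were at least 50% LAD, and 9 of the 34 that were mostly canyon were less than 50% LAD. The order of the states by LAD share was thus the same in both kinds of mesa. The state without a predominant H3K27me3 call therefore held 38.2% of shared and 57.0% of mostly replicative mesas.

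Examples of each state show how complete these overlaps could be. Among shared mesas at least 90% under H3K27me3 mesas, the longest had covers of 100% (chromosome 16, 5586001 to 6986999, 1.40 Mb), 100% (chromosome 5, 167942001 to 169282999, 1.34 Mb) and 98.1% (chromosome 7, 156958001 to 158221999, 1.26 Mb). The chromosome 16 region lay wholly inside a Ras-induced mesa of 3609 kb that ran 302 kb before it and 1906 kb beyond it, and on the others the Ras-induced overlap was 73.7% and 93.7%. The longest that were mostly canyon were the chromosome 22 region given above, one on chromosome 11 (31836001 to 32971999, 1.14 Mb) that was 77.4% canyon and 82.2% LAD, and one on chromosome 9 (134547001 to 135667999, 1.12 Mb) that was 74.9% canyon and 92.1% LAD. None of these 3 touched an H3K27me3 mesa, and their overlaps with Ras-induced mesas were 97.9%, 56.5% and 55.9%.

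The Ras-induced partner was usually the larger region, a direction partly built in, since the rule asks for a minimum cover of the shared mesa and for none of its partner. The Ras-induced mesa that overlapped a shared mesa most had a median length of 952 kb over the 359 shared mesas, and 263 shared mesas (73.3%) were shorter than this partner. In comparison, the median length of all 755 autosomal Ras-induced mesas was 751 kb. Shared mesas met 357 Ras-induced mesas, 47.3% of the autosomal list: 326 met 1, 32 met 2 and 1 met 3. There were 335 different main partners, of which 22 served 2 shared mesas and 1 served 3. The base pairs common to a shared mesa and its partner made up a median of 61.3% of the stretch that either covered (quartiles 46.4 and 79.6%), and 46 pairs reached 90%.

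By arrangement, 150 shared mesas (41.8%) lay wholly inside 1 Ras-induced mesa, whose median length was 1219 kb against 694 kb for the mesas inside. Another 80 were paired with a single partner displaced towards lower coordinates and 71 with one displaced towards higher coordinates. In 25 cases (6.96%) the shared mesa held a whole Ras-induced mesa, and 33 (9.19%) met several. H3K27me3 mesa cover was 55.4% in the enclosed mesas and 26.1% in the 25 that enclosed their partner, which were 31.6% canyon. LAD cover was similar in these groups, at 88.2% and 88.7%. The 84 shared mesas that took up less than 50% of their partner had 63.1% of base pairs under H3K27me3 mesas, and the 275 that took up at least 50% had 42.9%. With membership requiring that both regions cover at least 50% of each other, the difference in H3K27me3 mesa cover from all other mesas was 7.03 points instead of 17.9.

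The longest enclosed mesas illustrate the arrangement. On chromosome 2, the mesa at 118612001 to 120226999 (1.61 Mb) lay in a Ras-induced mesa that reached 291 kb before its start and 91 kb beyond its end. On chromosome 17, the mesa at 68886001 to 70476999 (1.59 Mb, 86.1% under H3K27me3 mesas) had extensions of 19 and 132 kb. A pair on chromosome 1, at 174670001 to 176121999 and 179369001 to 180789999, had extensions of 108 and 253 kb and of 26 and 385 kb, with 88.1% and 88.3% under H3K27me3 mesas. On chromosome 14, the mesa at 93203001 to 94614999 was exceeded by 328 and 335 kb. In these 5 regions the share in LADs was between 90.1% and 100%.

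Edges agreed closely in a part of the cases only. Of the 718 edges of shared mesas, 214 (29.8%) lay within 50 kb of a Ras-induced edge of the same side, against 18.2% of all autosomal mesa edges. None of the 456 edges of mostly replicative mesas did; since both kinds of mesa are longer than 500 kb, edges that near imply a long overlap, so this contrast follows largely from the rule. Measured to the main partner, the median offset was 141 kb (quartiles 36.3 and 336 kb), 72 edges (10.0%) agreed to within 10 kb and 7 to the kilobase. Starts and ends behaved alike, with 106 starts and 107 ends within 50 kb and median offsets of 149 and 129 kb. Both edges lay within 50 kb in 36 shared mesas (10.0%), 1 edge in 141 (39.3%) and neither in 182 (50.7%).

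Where edges differed, the Ras-induced mesa more often reached further. The rule limits how far it can stop short and not how far it can reach, so these counts are a description. It ran more than 50 kb beyond the replicative edge at 337 edges (46.9%) and stopped more than 50 kb short at 168 (23.4%). The median extension was 38 kb outward at starts and at ends. Median distances to the nearest LAD edge were 75 kb for edges that agreed within 50 kb, 236 kb where the Ras-induced mesa reached further and 186 kb where it stopped short. Correspondingly, 34.7%, 24.0% and 21.4% of these edges had a LAD edge within 50 kb. The shares of edges lying inside LADs were similar, at 74.2%, 75.1% and 71.4%. Distances to the nearest H3K27me3 mesa edge had medians of 264, 318 and 364 kb. For the nearest canyon edge the medians were 420, 709 and 610 kb.

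**Figure D3:**
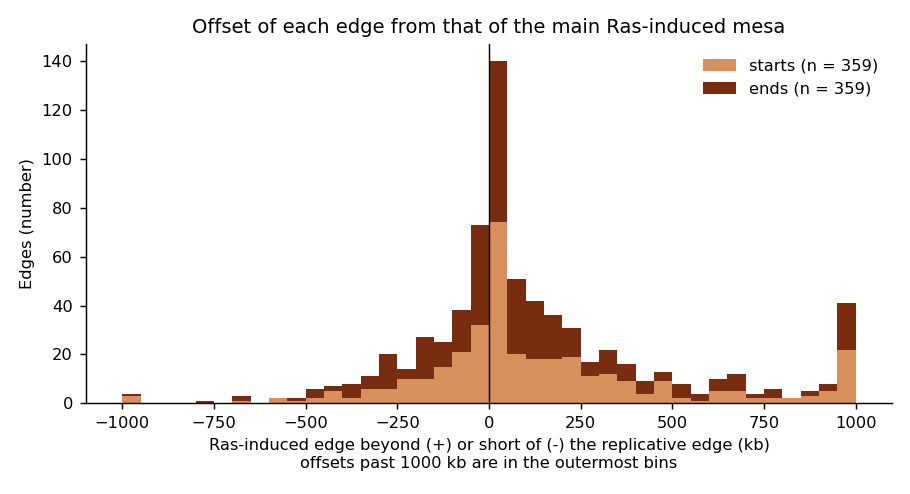
Number of edges of the 359 shared mesas by the distance in kb from the replicative edge to the edge of the main Ras-induced partner, in bins of 50 kb; positive values mean that the Ras-induced mesa reaches further out. The peak at 0 holds the 213 edges within 50 kb, and 337 edges lie beyond 50 kb on the right against 168 on the left, where the rule limits the distance.

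In the 5 closest pairs outside chromosome 8, each edge agreed to within 13 kb, on lists with a grid of 1 kb. Another pair, on chromosome 8, had offsets summing to 11 kb. On chromosome 20, the shared mesa at 45700001 to 46980999 (1281 kb) and its partner differed by 6 kb at the start and 3 kb at the end. On chromosome 13, at 28201001 to 28983999 (783 kb), the offsets summed to 12 kb, and on chromosome 1, at 221190001 to 221788999 (599 kb), to 14 kb. On chromosomes 18 (52851001 to 53388999) and 7 (66444001 to 67019999) they summed to 16 and 21 kb. These 5 shared mesas outside chromosome 8 had no canyon cover, between 78.8% and 100% of base pairs in LADs, and between 2.15% and 78.0% under H3K27me3 mesas.

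Pooled over all shared mesas, the base pairs that Ras repeated were richer in LADs and H3K27me3 mesas than those it did not. The repeated 260 Mb were 89.6% LAD and 48.7% H3K27me3 mesa, and the other 32.8 Mb were 80.0% LAD and 31.5% H3K27me3 mesa. The LAD difference of 9.60 points was 4.66 points when any overlap of at least 1 bp made a mesa shared, and 15.0 points when 90% was required. LAD cover was higher in the repeated part on 15 of 22 autosomes and H3K27me3 mesa cover on 17 of 22. Position within the mesa moved with this, because unrepeated base pairs were mostly near the edges. In the outer 20% of the length at each end, LAD cover was 85.5% where repeated and 74.6% where not, and H3K27me3 mesa cover 42.1% and 27.5%. In the middle 60% the corresponding values were 91.9% and 89.7% for LADs and 52.5% and 38.9% for H3K27me3 mesas. In these pooled values the LAD difference was thus mainly one of the outer parts, while the H3K27me3 difference was similar in both.

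Outside the replicative edges, the picture changed. The parts of the same Ras-induced mesas that no replicative mesa covered came to 110 Mb, of which 69.2% was LAD and 43.2% H3K27me3 mesa. Repeated base pairs had more LAD cover than these extensions on 21 of 22 autosomes and more H3K27me3 mesa cover on 15 of 22. Within LADs, H3K27me3 mesas covered 56.0% of the extensions, 53.3% of the repeated base pairs and 36.0% of the unrepeated ones.

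Along the scaled length of the shared mesas, LAD cover was 81.9% in the first twentieth, 93.3% in the tenth and 72.5% in the last. H3K27me3 mesa cover went from 34.5% to 55.0% and 30.5% at the same points, and canyon cover from 17.7% to 12.2% and 20.2%. In the flanks, LAD cover was 53.4% at 200 kb before the start and 56.9% at 200 kb beyond the end. Ras-induced mesas still covered 44.2% and 38.9% there, and H3K27me3 mesas 31.8% and 29.3%. In the mostly replicative mesas, LAD cover was 87.4, 93.4 and 76.6% at the same points of the length, close to the shared value in the middle. Their flanks had more LAD, with 68.2% at 200 kb before the start and 60.2% at 200 kb beyond the end. Their H3K27me3 mesa cover was lower at these points of the length, at 19.6, 33.0 and 22.9%. It was also lower in the flanks, with 18.7% at 200 kb before the start and 21.4% at 200 kb beyond the end.

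**Figure D4:**
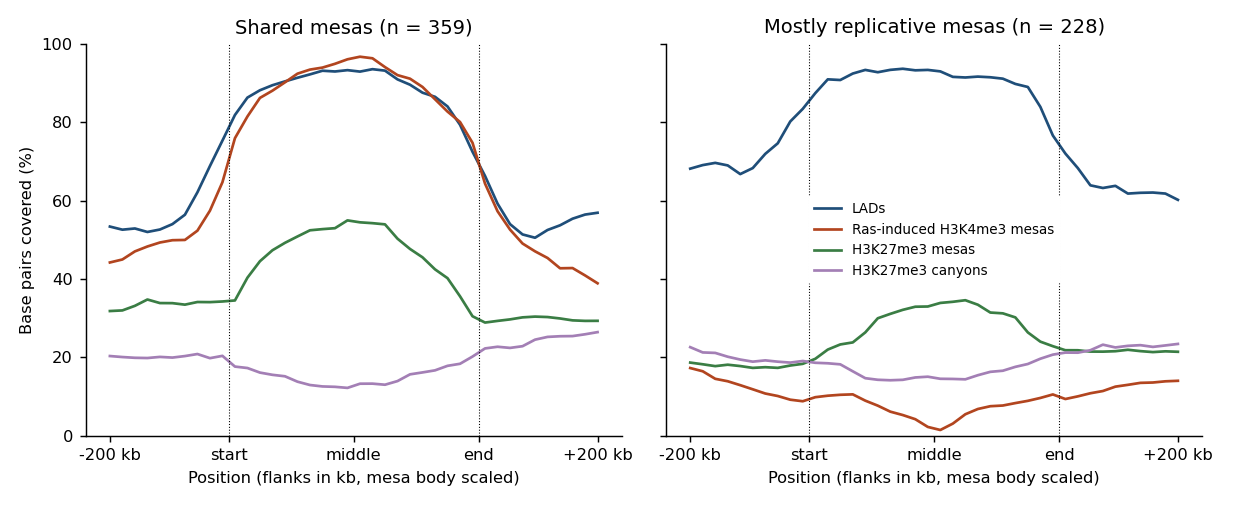
Percent of base pairs covered by LADs, Ras-induced H3K4me3 mesas, H3K27me3 mesas and canyons along mesas scaled to 20 bins, with 200 kb flanks in bins of 20 kb, for 359 shared mesas (left) and 228 mostly replicative mesas (right); dotted lines mark start and end. LAD cover in the tenth bin is 93.3% and 93.4%, but 200 kb before the start it is 53.4% in shared and 68.2% in mostly replicative mesas; H3K27me3 mesa cover in the tenth bin is 55.0% and 33.0%.

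Shared mesas were found on every autosome, in uneven proportion. The share of a chromosome's replicative mesas that passed the rule had a mean of 65.8 ± 15.6% (SD, 22 autosomes). The lowest values were 36.8% of 38 mesas on chromosome 8 and 42.4% of 33 on chromosome 9. The highest were 95.2% of 21 on chromosome 19, 9 of 10 mesas on chromosome 22 and 5 of 5 on chromosome 21. Ras-induced mesas covered 53.2% of chromosome 19, more than of any other autosome, and across the 22 autosomes the share passing the rule had a Pearson r of 0.51 and a Spearman rho of 0.43 with that cover, which enters the rule. Shared mesas took up 27.7% of chromosome 19, 24.0% of chromosome 20 and 4.89% of chromosome 4, the lowest value. On the gene-dense chromosomes 16, 17, 19, 20 and 22, 71 of 92 mesas passed (77.2%), and on the gene-poor chromosomes 4, 13 and 18, 32 of 52 (61.5%). The share over all autosomal mesas was 61.2%. Chromosomes varied within both groups, from 66.7% on chromosomes 16 and 17 to 95.2% on 19, and with 51.9, 66.7 and 76.9% on 4, 13 and 18. Distance to a chromosome's end was measured to its outermost deposited coordinate, which need not be the true end. Of 75 mesas within 5 Mb of such a coordinate, 59 were shared (78.7%). These were 16.4% of shared mesas, against 12.8% of all autosomal mesas. Chromosome X, outside the rule, had 24 of 61 mesas (39.3%) with at least 50% overlap.

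Chromosomes also differed in the H3K27me3 cover of their shared mesas. It was highest on chromosomes 8 (69.2%), 17 (68.3%) and 1 (62.7%), and lowest on chromosomes 4 (18.8%), 11 (22.6%) and 13 (23.4%). On chromosome 1 the mostly replicative mesas were at 23.7%, on chromosome 5 shared mesas were at 53.7% and the others at 10.3%, and on chromosome 15 the values were 60.5% and 11.7%. On chromosomes 9 and 12 the kinds were close, at 35.7% and 32.4% and at 57.2% and 57.4%. LAD cover of shared mesas ranged from 67.7% on chromosome 22 to 96.9% on chromosome 19, and canyon cover from 1.53% on chromosome 18 to 34.6% on chromosome 11.

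**Figure D5:**
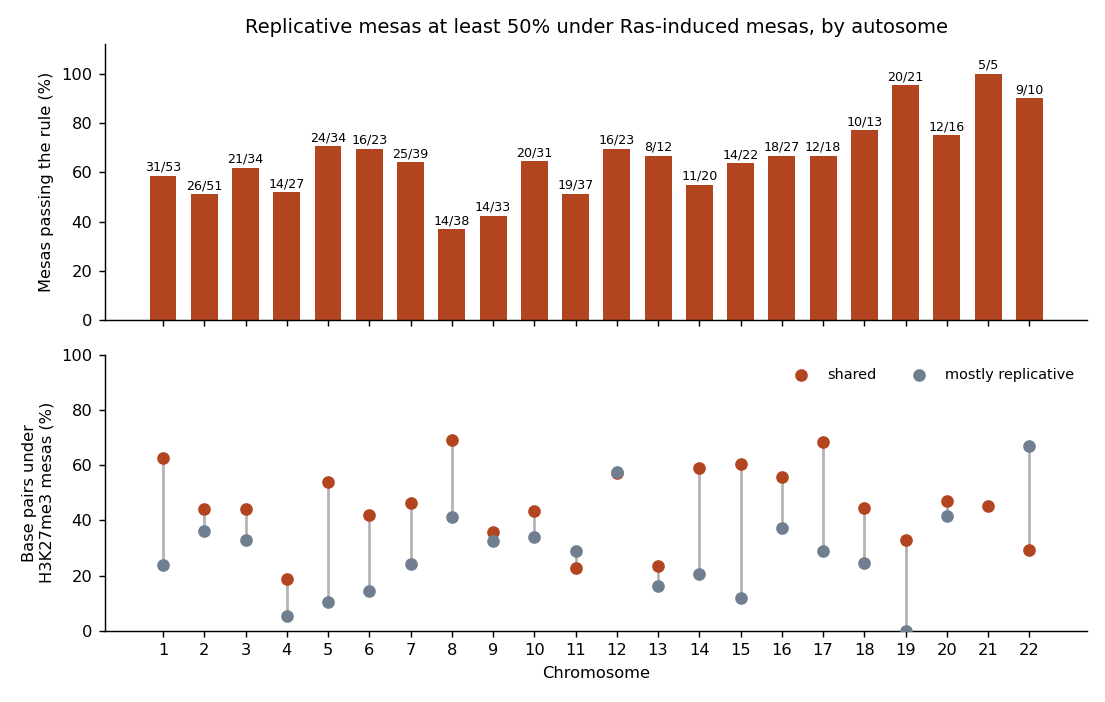
Top, percent of each autosome's replicative mesas that were shared, with counts above the bars. Bottom, percent of base pairs under H3K27me3 mesas in shared (orange) and mostly replicative (grey) mesas of each autosome; the shared value is the higher one on 18 of 21 autosomes, and chromosome 21 has no mostly replicative mesa.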

How the data were processed

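Of 17 ChIP-seq libraries in 11 groups, the deposited data used here are 5 region lists of the whole series, holding coordinates only. The submitters' processing notes name Bowtie 0.12.5 for alignment and hg18 as build. How regions were called, with what thresholds or H3 control, and whether libraries were pooled is not given in the sources used here. The deposited track lines describe a merged lamin B1 track (LADs) and a combined track of more H3K4me3 (replicative mesas), per the file headers; the direction of the others is taken from their names.

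Cover was computed in base pairs with Python 3.11.15, numpy 2.4.6 and pandas 2.3.3, with starts taken as 0-based and ends as deposited; starts are printed 1-based. Interval operations were tested on simulated data. A chromosome's span runs between the outermost deposited coordinates of all lists. One pair of overlapping canyons was merged. The main partner is the Ras-induced mesa with the most shared base pairs. Regions named are the longest members, the longest enclosed, the best edge matches, the longest in 3 contexts and those nearest the rule; regions of chromosome 8 were counted but not named. No annotation or sequence of hg18 was used, so no genes are named. Members, lists and named contexts were chosen with earlier results of these data known.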

Additional observations from a re-analysis of the deposited data

How the results depend on the processing

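The differences between shared and mostly replicative mesas, inclusive ends, LAD gaps of up to 100 kb filled and the restriction to LADs were chosen after seeing the data. Requiring 90% overlap left 231 mesas, with 52.1% under H3K27me3 mesas, 39.8% of edges within 50 kb and a LAD difference of 15.0 points between repeated and unrepeated base pairs. That LAD difference, 9.60 points in the main analysis, was 4.66 with any overlap of at least 1 bp, 7.26 at 30% and 14.9 at 70%. The reciprocal rule gave a median length of 774 kb, 34.2% of edges within 50 kb and an H3K27me3 mesa difference of 7.03 points. Keeping only mesas of at least 1000 kb left 74 shared mesas, with a median length of 1154.5 kb and 24.3% of edges within 50 kb. For these, the H3K27me3 mesa difference between repeated and unrepeated base pairs was 24.4 points. Their LAD difference from other mesas of that length turned to 0.472 points. A tolerance of 10 or 100 kb gave 10.0 or 42.8% of edges. With each autosome left out in turn, the LAD share was 87.9 to 89.0%, H3K27me3 mesa cover 45.3 to 48.2% and its difference from other mesas 15.9 to 19.4 points. Filling LAD gaps of at most 50 kb changed nothing, as no gap is shorter than 60 kb. No paired analysis was possible because the lists hold no value per library. Depth is unknown, and lengths near the 500 kb floor and assembly gaps limit every overlap.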

Other observations

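The LAD list and the replicative mesas of both kinds were not symmetric along the genome. Of the 359 starts, 280 (78.0%) lay in LADs, and of the 359 ends, 251 (69.9%). The mostly replicative mesas differed in the same direction, with 195 of 228 starts and 171 of 228 ends in LADs, and over all autosomal mesas the shares were 80.9% and 71.9%. Moving the whole LAD list towards higher coordinates in steps of 10 kb, chosen after the data were seen, gave the highest LAD share of shared mesas at a shift of 20 kb, at 88.6% against 88.5% without a shift, and the share was 86.8% at a shift of -60 kb and 86.9% at 100 kb. Starts of the LAD list lie on a grid of 10000 bp.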
